A study of Mus musculus with 8 samples.

Results

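Gkn3, Mgp and Bmx are 3 genes of the artery wall that were followed from postnatal day 5 (P5) through postnatal day 10 (P10) to adulthood in microvessels of the mouse forebrain. They were picked because earlier results on these same arrays gave them very low ratios at P5. Every value at P5 is therefore a description, and P10 against adult is the comparison in which they were tested. That comparison shares its P10 and adult samples with the ratios behind the choice, so it is not independent of it. All probes whose accession maps to the 3 genes were taken: 4 probes out of 39429, and 3 genes out of the 21939 that could be tested. Gkn3 (NM_026860) is read by probe A_51_P267700, Mgp (NM_008597) by probe A_51_P426270, and Bmx (NM_009759) by a brighter probe, A_55_P2162324, and a dimmer probe, A_66_P129468. All 4 probes passed the filter on dim signals. The dimmer Bmx probe passed it only through the P10 channels.

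The RNA came from vessel fragments below 70 µm, isolated from whole forebrain at 5 days, at 10 days and in adults. RNA of 2 ages was labelled with Cy5 and Cy3 and hybridised together on each of 8 arrays. Each of 2 replicates lay on a slide of its own with 4 arrays: P5 with adult, P10 with adult, the same pair with the dyes exchanged, and P5 with P10. P5 RNA carried Cy5 on every array, so the dye effect was estimated from the exchanged P10 pair. Strain, genotype, sex, the adult age and the number of animals per RNA sample are not given in the sources used here, nor is whether the replicates were separate preparations. The p-values therefore measure the spread between these samples only, which may be technical, and replicate and slide cannot be told apart. Of the 43020 non-control spots, between 65.2% and 73.3% were well above background in each channel, and across all genes the replicates' log2 ratios correlated with r of 0.901 for P5 against adult, 0.813 for P10 against adult and 0.80 for P5 against P10.

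The wall of a brain artery or arteriole has an inner endothelium, an elastic and collagenous matrix and a coat of contractile smooth muscle cells. Endothelial cells of arteries carry a Notch and SOX17 programme that sets them apart from capillary and venous cells. Gkn3 encodes a gastrokine, a small secreted protein whose family is best known from the stomach lining, and in brain it is used as a marker of arterial endothelial cells. Mgp encodes matrix Gla protein, which needs vitamin K dependent carboxylation, inhibits calcification of the vessel wall and binds bone morphogenetic proteins (BMPs). Bmx encodes a non-receptor tyrosine kinase of the TEC family that is found in the endothelium of arteries and in the endocardium. The labelled tissue was checked against 23 genes of endothelial identity, such as Pecam1, Cdh5 and Cldn5, and all 23 were well above background in every channel at every age.

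The upstream sequences of Gkn3 and Bmx are shown because the genes were chosen as a set with a common course over age. Both are the 250 bases before the gene's start, 5′ to 3′ on the gene's strand, from RefSeq (GRCm38.p6). The Gkn3 window is chr6:87388936-87389185 and the Bmx window chrX:164258194-164258443, both on the minus strand. Capitals mark every match, on either strand, to 6 short motifs of factors known from endothelium.
Gkn3: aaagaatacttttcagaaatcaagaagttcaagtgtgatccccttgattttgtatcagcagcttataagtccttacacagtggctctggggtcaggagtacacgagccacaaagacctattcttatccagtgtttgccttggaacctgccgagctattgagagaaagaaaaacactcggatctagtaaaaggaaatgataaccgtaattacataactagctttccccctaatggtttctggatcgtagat
Bmx: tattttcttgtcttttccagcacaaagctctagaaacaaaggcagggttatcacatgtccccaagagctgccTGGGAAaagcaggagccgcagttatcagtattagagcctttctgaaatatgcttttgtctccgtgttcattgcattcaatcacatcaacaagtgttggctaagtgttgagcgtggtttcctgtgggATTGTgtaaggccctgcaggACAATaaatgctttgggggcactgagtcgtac
The Bmx window holds 1 match to the RBPJ motif TGGGAA, 178 bases before the start. It holds 2 matches to the SOX motif ACAAT, 52 bases before the start on the minus strand and 32 bases before it on the plus strand. These matches do not overlap. The Gkn3 window holds no match to either, and neither window holds the ETS motif GGAAG, the FOX motif TGTTTAC, the KLF motif CACCC or the GATA motif AGATAA. Only these exact letters were searched. Each is 1 form of the sites that its factors bind, so a window without a match may still hold other forms. Among 32851 windows of the same length, 21.6% hold the RBPJ motif, 27.7% the SOX motif, 64.1% the ETS motif, 3.17% the FOX motif, 52.0% the KLF motif and 9.99% the GATA motif. A match is a description of letters in the window. No promoter of Mgp was matched.

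Gkn3 was very low at P5 and near the adult level at P10, below it in replicate 1 and above it in replicate 2. Its normalized log2 signal was 10.36 and 10.43 in the P5 channels of replicate 1 and 10.17 and 10.26 in those of replicate 2. In the 6 P10 channels it ran from 12.95 through a median of 13.21 to 13.44, and in the 6 adult channels from 13.13 through 13.36 to 13.75. All P5 channels lay below all P10 and adult channels. The P10 and adult channels overlapped only across the replicates. In replicate 1 the P10 channels (12.95 to 13.18) lay below the adult channels (13.55 to 13.75). In replicate 2 the P10 channels (13.25 to 13.44) lay above the adult channels (13.13 to 13.17). The log2 ratio of P5 to adult was -3.22 on the array of replicate 1 and -2.99 on that of replicate 2. The log2 ratio of P5 to P10 was -2.52 and -3.17. Fitted over all arrays, the P5 to adult log2 ratio of Gkn3 was -2.96 ± 0.21 (SE, n = 2), a level 7.79-fold lower than in the adult or 12.8% of it, and the P5 to P10 ratio was -2.75 ± 0.21, or 6.72-fold lower. Gkn3 stood 55th from the lowest of 21939 genes in P5 against adult and 9th in P5 against P10. Gkn3, Mgp and Bmx were all called lower by limma in both comparisons, as their choice on P5 ratios implies, where 53.1% and 41.2% of all genes were called in either direction; nothing is read from that count.

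Mgp followed the same course. Its normalized log2 signal was 10.56 and 10.77 in the P5 channels of replicate 1 and 10.82 and 10.88 in those of replicate 2. In the P10 channels it ran from 11.54 through a median of 13.59 to 14.10, and in the adult channels from 11.67 through 13.43 to 13.66. The lowest P10 and adult values came from the same array, on which replicate 1's P10 and adult RNA had exchanged dyes and where the Mgp spot was dim in both dyes. Its P10 to adult ratio there, -0.13, lay beside the -0.05 of the partner array. Even with that array, no P5 channel reached a P10 or adult channel. The log2 ratio of P5 to adult was -2.74 and -2.75 on the arrays of the 2 replicates, and that of P5 to P10 was -2.31 and -3.21. The fitted values were -2.72 ± 0.20 for P5 against adult, 6.58-fold lower or 15.2% of the adult level, and -2.86 ± 0.20 for P5 against P10, 7.27-fold lower. Mgp stood 85th from the lowest of all genes in P5 against adult and 6th in P5 against P10.

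Bmx had the smaller P5 deficit. On its brighter probe the log2 signal was 8.89 and 8.91 in the P5 channels of replicate 1 and 9.06 and 9.04 in those of replicate 2. It ran from 10.64 through a median of 10.98 to 11.38 in the P10 channels and from 10.93 through 11.09 to 11.23 in the adult channels. As with Gkn3 and Mgp, the P5 channels stood apart, and the P10 and adult channels of the 2 replicates together overlapped. In replicate 1 the P10 channels of this probe lay below the adult channels. The P5 to adult log2 ratio was -2.04 and -2.18 on the arrays of the 2 replicates, and the P5 to P10 ratio was -1.73 and -2.29. The fitted values were -1.99 ± 0.14 for P5 against adult, 3.97-fold lower or 25.2% of the adult level, and -1.92 ± 0.14 for P5 against P10, 3.79-fold lower. Bmx stood 315th and 42nd from the lowest in these comparisons.

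**Figure D1:**
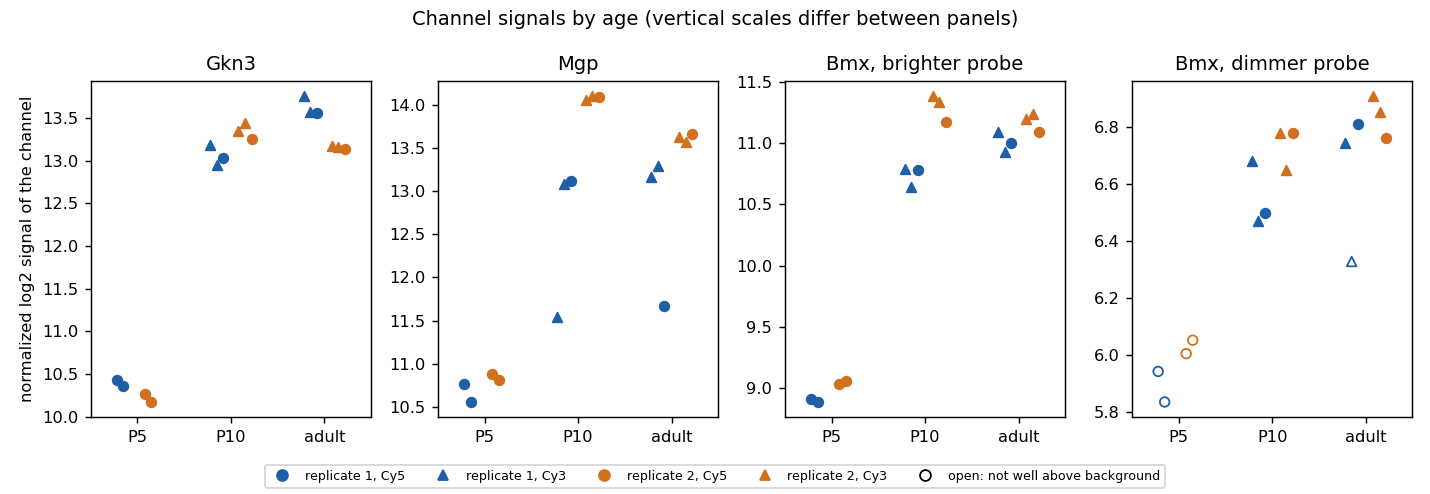
Normalized log2 signal (vertical axis, with a scale of its own in each panel) of each array channel by age for the 4 probes, with replicates by colour, dyes by symbol and open symbols for signals not well above background. The 4 P5 channels lie below every P10 and adult channel in each panel, and the P10 and adult channels overlap when the replicates are pooled. Within each replicate those of Gkn3 do not overlap.

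The dimmer Bmx probe gave a bound at P5. It was not well above background in any of the 4 P5 channels, in which its log2 signal was 5.83 to 6.05, and it was well above background in all 6 P10 channels (6.47 to 6.78) and in 5 of 6 adult channels (6.33 to 6.91). Set against the lowest signal that was well above background on each P5 array, its signal was at least 1.502-fold higher at P10 (mean log2 of 6.64 against 6.05) and at least 1.60-fold higher in the adult (mean 6.73). These bounds rest on separate channels, in which P5 was always Cy5, and are open to dye bias. The ratios fitted on the arrays with a dye term were smaller, at 1.41-fold between P10 and P5 and 1.52-fold between adult and P5, and the P5 to adult log2 ratio was -3.37 with the scanner's processed signals. The size of the P5 difference on this probe was therefore not settled, and it is not compared with that on the brighter probe. At P10 against adult the dimmer probe had a log2 ratio of -0.11 ± 0.11 (95% confidence interval -0.39 to 0.17, limma adjusted p = 0.571 over 27107 probes).

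At P10 none of the 3 genes passed the test against the adult. The log2 ratio of P10 to adult was -0.21 ± 0.21 for Gkn3 (SE, n = 2; 95% confidence interval -0.75 to 0.32; limma with Benjamini-Hochberg adjustment over all genes, adjusted p = 0.569). It was 0.14 ± 0.20 for Mgp (interval -0.38 to 0.67, adjusted p = 0.717) and -0.07 ± 0.14 for Bmx (interval -0.44 to 0.31, adjusted p = 0.823). Among all 21939 genes, 17.5% passed at an adjusted p below 0.05 in this comparison, 8.42% higher and 9.10% lower at P10. Of the 3 genes 0 did. At an unadjusted limma p below 0.05 there were 7036 of the 21939 genes and also 0 of the 3, and nothing is read from these counts. The intervals bound the difference: for Gkn3, the P10 level lay between 0.595 and 1.25 times the adult level. A p above the threshold does not show that the levels were equal.

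The replicates fell on opposite sides of the adult level at P10 in all 3 genes. In replicate 1 the slide's fitted log2 ratio of P10 to adult was -0.58 for Gkn3, -0.16 for Mgp and -0.27 for Bmx, and in replicate 2 it was 0.15, 0.44 and 0.13. On the single arrays, Gkn3 read -0.72 and -0.38 on the arrays of replicate 1 and 0.08 and 0.21 on those of replicate 2. Mgp read -0.05 and -0.13 in replicate 1 and 0.47 and 0.40 in replicate 2. Bmx read -0.31 and -0.21 in replicate 1, and -0.02 and 0.29 in replicate 2. The array pairs of Gkn3 and Mgp thus split by replicate, while 1 of the replicate 2 arrays of Bmx lay just below the adult level. In P5 against adult the slides' fitted values lay closer together, at -2.98 and -2.94 for Gkn3, -2.64 and -2.80 for Mgp, and -1.97 and -2.01 for Bmx. P5 against P10 differed between the replicates as well, at -2.41 and -3.09 for Gkn3, -2.48 and -3.24 for Mgp, and -1.70 and -2.14 for Bmx.

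The arrays closed on each other within a slide. The P5/P10 array of replicate 1 read -2.52 for Gkn3, and subtracting what the P10/adult arrays read from the P5/adult reading gave -2.67. In replicate 2 these were -3.17 and -3.13. For Mgp the pairs were -2.31 with -2.65 and -3.21 with -3.19, and for the brighter Bmx probe -1.73 with -1.78 and -2.29 with -2.31. The direct array and the indirect path thus differed by less than the replicates' P5/P10 arrays did on these 3 probes. On the dimmer Bmx probe they differed by more in replicate 1 (-0.53 with -0.30) than the replicates' P5/P10 arrays did (-0.53 and -0.64).

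**Figure D2:**
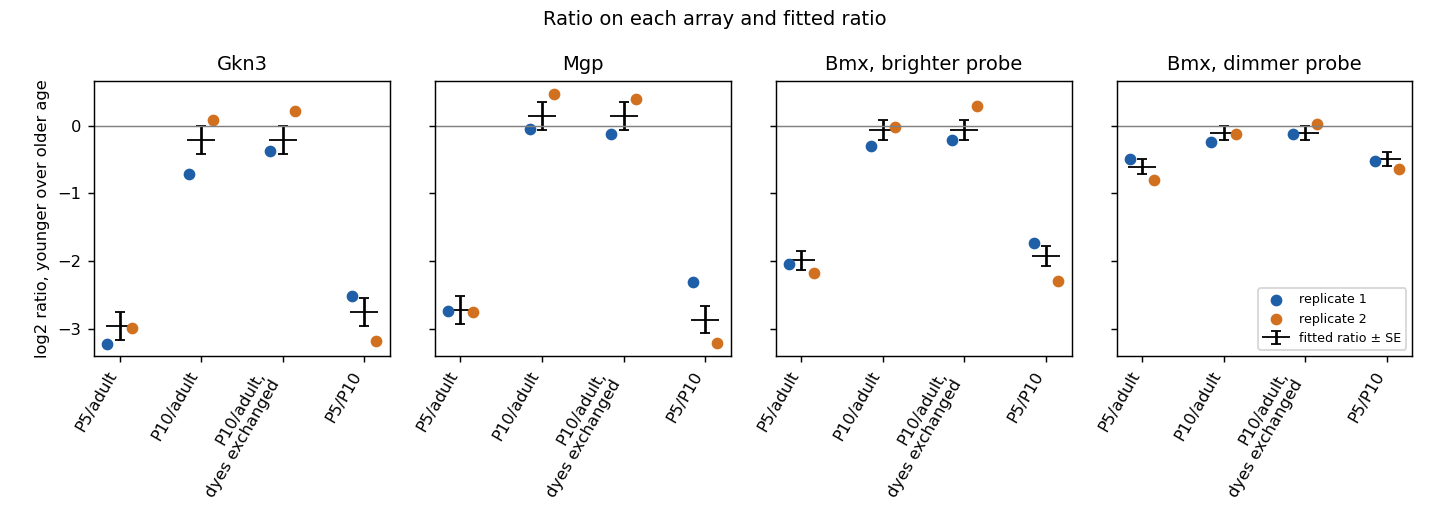
Log2 ratio of the younger over the older age (vertical axis) on each of the 8 arrays for the 4 probes, with replicate 1 in blue and replicate 2 in orange; black bars give the fitted ratio ± SE. For Gkn3, Mgp and both Bmx probes the arrays that hold P5 RNA lie below 0, and the P10/adult arrays lie near 0, with replicate 2 above replicate 1.

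Most other genes of arterial endothelium were low at P5 too, and at P10 they spread in both directions. Of 25 other arterial genes, 20 were lower and 2 higher at P5 than in the adult, with a median log2 ratio of -1.39, against 23.0% of all genes lower, 30.1% higher and a median of 0.09. With median centring in place of loess, the share of higher genes among all those called fell from 56.6% to 46.6% in P5 against adult and from 55.8% to 39.9% in P5 against P10, and the medians of all genes moved from 0.09 to -0.07 and from 0.06 to -0.12. Tm4sf1, an endothelial membrane protein, had a P5 to adult log2 ratio of -3.29 ± 0.10, Edn1, the vasoconstrictor endothelin-1, one of -3.27 ± 0.12, and Cytl1, a secreted cytokine-like protein, one of -2.90 ± 0.13. Only Tm4sf1 and Edn1 of the 25 lay below Gkn3, while 4 lay below Mgp and 7 below Bmx. The 2 higher genes were Stmn2 (1.54) and Notch1 (2.09), and a second probe of Notch1 read -1.03. These ratios share their adult and P5 samples with those on which Gkn3, Mgp and Bmx were chosen.

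At P10, 6 of the 25 arterial genes were higher than in the adult, 6 were lower and 13 did not pass, with a median of 0.01. The higher genes included Fbln5, an elastic fibre protein, at 2.23 ± 0.18 (adjusted p = 0.00423; 0.72 on its other probe), Gja5, the arterial connexin 40, at 1.91 ± 0.15 (0.00371), and Eln, elastin, at 1.81 ± 0.15 (0.00425). The lower genes included Cytl1 at -2.64 ± 0.13 (adjusted p = 0.0020), Acvrl1, the endothelial BMP receptor ALK1, at -1.66 ± 0.09 (0.00225), and Edn1 at -1.39 ± 0.12 (0.00468). Gkn3, Mgp and Bmx belonged to the larger group that did not pass, with Vegfc (0.58), Sox17 (-0.40) and Hey1 (-0.53). Cytl1 and Gkn3 had nearly the same ratio at P5, and at P10 Cytl1 was still at -2.64. From P5 to P10, 21 of the 25 arterial genes were called with P5 lower and 2 with P5 higher (all genes 18.2% and 23.0%), and the lowest ratios were those of Gja5 (-3.30), Fbln5 (-3.02, and -0.82 on its other probe) and Vegfc (-2.64).

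**Figure D3:**
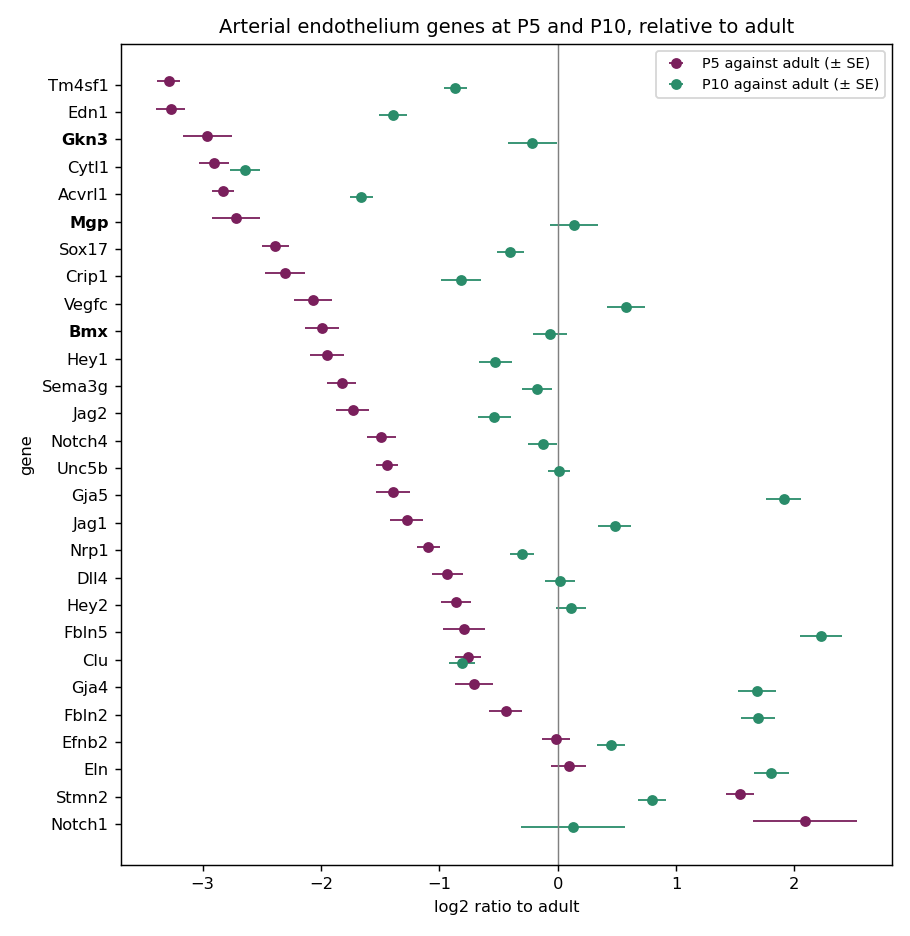
Log2 ratio to the adult (horizontal axis) at P5 in purple and at P10 in green, with SE bars, for the 28 genes of the arterial list, ordered by the P5 value and with Gkn3, Mgp and Bmx in bold. Gkn3 (-2.96) and Mgp (-2.72) lie among the lowest at P5, and 7 of the 25 other genes lie below Bmx (-1.99). The 3 genes were picked for low P5 ratios, so nothing is read from these places. At P10 they lie near 0, while Cytl1 lies at -2.64 and Fbln5 at 2.23.

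Genes of the other cells of the vessel were lower at P5 as well, and in bulk RNA fewer cells of a type and less RNA per cell cannot be told apart. Of 23 genes of endothelial identity, 22 were lower and 0 higher at P5 than in the adult (limma, median -1.68), led by Ly6c1 (-4.20), Flt1 (-3.86) and Ly6a (-3.71). Of 14 smooth muscle genes, 10 were lower and 0 higher (median -1.69, or -2.90 with processed signals and -2.92 with the deposited log ratio), led by Tagln (-3.37), Myl9 (-2.78) and Cnn1 (-2.65), all of the contractile apparatus. Of 12 pericyte genes, 10 were lower and 0 higher (median -1.37), led by Vtn (-2.42). Within each slide Gkn3 lay below the median of the endothelial identity genes by a log2 difference of -1.41 and -1.25, Mgp by -1.06 and -1.11, and Bmx by -0.39 and -0.32. From P5 to P10, none of the 23 endothelial genes had a ratio as low as that of Gkn3 or Mgp, and 1 had one lower than Bmx. In P5 against adult, 4 of the 23 lay below Gkn3, 4 below Mgp and 7 below Bmx. The 3 genes were picked for low P5 ratios, so nothing is read from these positions or from the distances to the median.

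At P10, 10 of 14 smooth muscle genes and 13 of 23 endothelial identity genes did not pass the test against the adult. Of the smooth muscle genes, 3 were lower than in the adult, namely Pln (-1.34), Synpo2 (-1.06, and -0.43 and -0.15 on its other probes) and Cnn1 (-0.93), 1 was higher, Actg2 (2.55), and the median was -0.08. Of the 23 endothelial identity genes 8 were lower, led by Flt1 (-2.42), Ly6a (-2.32) and Ly6c1 (-2.29), with a median of -0.35 for the list. The 2 higher genes were Clec14a (1.03, and 0.36 on its other probe) and Sox7 (0.45). With median centring 4 endothelial genes were lower and 1 higher, and with processed signals 7 and 0. The summed log2 signal of the smooth muscle list in the 2 replicates was 14.5 and 14.0 at P5, 16.1 and 16.6 at P10, and 16.3 and 16.5 in the adult. That of the endothelial identity list was 17.6 and 17.3 at P5, 18.7 and 18.5 at P10, and 19.7 and 19.5 in the adult. The smooth muscle sum, like the 3 genes, stood below the adult in replicate 1 and above it in replicate 2 at P10. So did the sum of the microglia list (15.68 and 16.23 at P10, 16.16 and 16.01 in the adult). The P10 to adult list medians split likewise for smooth muscle (-0.19 and 0.05), arterial (-0.27 and 0.02) and BMP pathway genes (-0.15 and 0.0051). Those of the microglia list were both positive (0.02 and 0.14). The part of any of these lists in the values of Gkn3, Mgp and Bmx was not tested.

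**Figure D4:**
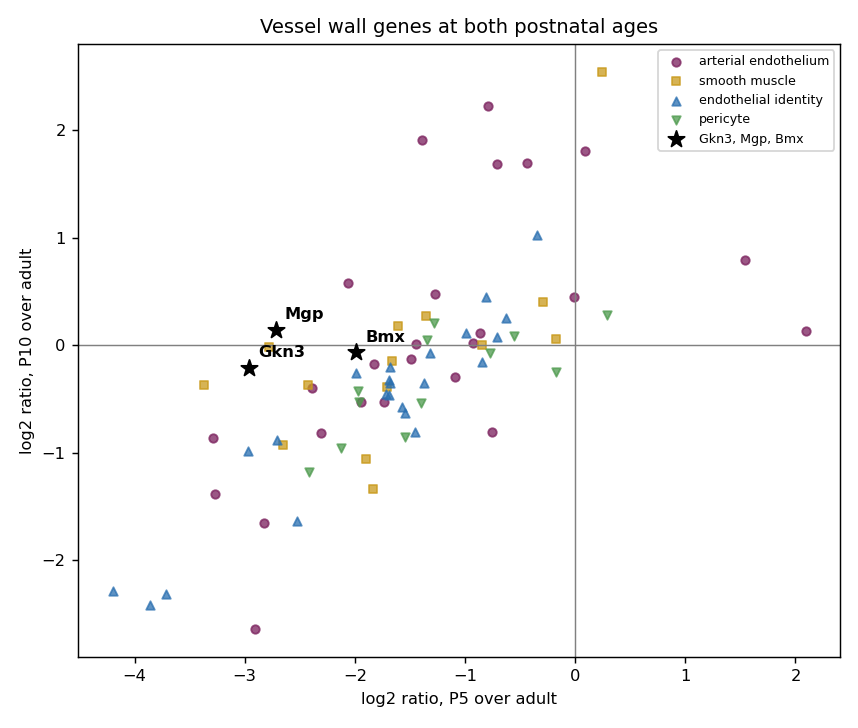
Log2 ratio of P10 over adult (vertical axis) against log2 ratio of P5 over adult (horizontal axis) for genes of arterial endothelium, smooth muscle, endothelial identity and pericytes, each point a gene and stars for the 3 genes. Gkn3, Mgp and Bmx lie far to the left and close to the horizontal line, beside the smooth muscle genes Myl9 (-2.78 and -0.02) and Myh11 (-2.42 and -0.37). Other smooth muscle genes lie elsewhere: the list runs from -3.37 to 0.25 on the horizontal axis and from -1.34 to 2.55 on the vertical axis. Flt1 (-3.86 and -2.42) lies low on both axes.

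Erythroid and immature neuron markers were higher at P5. All 9 measured erythroid genes were higher at P5 than in the adult (median 4.80), and their summed log2 signal was 20.9 to 21.1 at P5, 18.9 to 19.3 at P10 and 17.1 to 17.2 in the adult. Of 12 immature neuron genes 11 were higher (median 1.94), with a summed signal of 14.9 to 15.3 at P5, 14.0 to 14.6 at P10 and 13.5 to 13.9 in the adult. In P5 against adult, 30.1% of all genes were higher and 23.0% lower. Of 11 fibroblast genes 4 were higher and 3 lower (median 0.17, or -0.32 with median centring), and of 10 choroid plexus genes 6 were higher and 2 lower (median 0.90), or 2 and 2 with median centring (median 0.43). In the same comparison 2 of 12 venous genes were higher and 6 lower, 0 and 5 of 9 mature neuron genes, 2 and 4 of 10 astrocyte genes, 1 and 7 of 10 myelin genes, and 2 and 0 of 10 microglia genes. With median centring these counts were 1 and 7, 0 and 6, 1 and 6, 1 and 8, and 1 and 0. At P10, 5 fibroblast genes were higher and 0 lower than in the adult by limma (median 0.55). The part of these cells' RNA in the ratios of Gkn3, Mgp and Bmx was not tested.

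Other genes of the pathways of Mgp moved in both directions. Mgp is one of the Gla proteins, whose glutamate residues are carboxylated by Ggcx with vitamin K that Vkorc1 recycles. Of 9 other measured genes of this group, 6 were lower and 1 higher at P5 than in the adult (median -0.61), against 23.0% and 30.1% of all genes. The lowest were Prrg1, a membrane Gla protein, at -1.74, Pros1, the anticoagulant protein S, at -1.31, and Gas6, the ligand of the TAM receptors, at -0.94, and the higher gene was Prrg3 (0.56). At P10, 3 were still lower, Gas6 (-0.70), Prrg1 (-0.69) and Pros1 (-0.42), and Prrg3 was higher (0.66). These calls at P10 were lost with median centring, and with processed signals or the deposited log ratio 2 were lower and 0 higher. The difference between Mgp and these genes was not tested.

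Genes that control mineralisation were spread in both directions. Of 11 measured without Mgp, 5 were lower and 3 higher at P5 than in the adult, and 3 were lower and 2 higher at P10. Of all genes, 23.0% were lower and 30.1% higher at P5, and 9.10% and 8.42% at P10. Alpl, the alkaline phosphatase that hydrolyses the calcification inhibitor pyrophosphate and is abundant on brain endothelium, was lower at both ages (-3.38 ± 0.15 at P5 and -2.71 ± 0.15 at P10, limma adjusted p = 0.00224 at P10). Spp1, osteopontin, was also lower at P10 (-1.56), as was Ank, a pyrophosphate exporter (-1.03). Tnfrsf11b, the decoy receptor osteoprotegerin, was higher at P10 (1.35), as was the phosphate transporter Slc20a2 (0.45). Under each of 4 other scalings only 1 gene of this list was higher at P10, and with median centring 2 were lower.

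In the BMP pathway, 11 of 21 measured genes without Mgp were lower and 4 higher at P5 than in the adult (median -0.52). At P10, 9 were lower and 1 higher (median -0.12). The shares of all genes were 23.0% lower and 30.1% higher at P5, and 9.10% and 8.42% at P10. The count of lower genes at P10 was 3 with median centring, 5 with processed signals and 6 with the deposited log ratio. The lowest at P5 were the target gene Id1 (-2.87), the receptor Acvrl1 (-2.83) and the inhibitory Smad6 (-2.47). The highest were the ligand Bmp4 (0.93) and the secreted inhibitors Nog (0.89) and Bmper (0.68). At P10 the lowest were Acvrl1 (-1.66), the inhibitory Smad7 (-1.04) and the receptor Bmpr2 (-0.96), and Bmp2 was higher (1.15 ± 0.23, limma adjusted p = 0.0349). In P10 against adult the log2 ratio of Mgp was 0.14 and that of Id1 -0.93. A link between Mgp and the genes of this pathway was not tested.

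Relatives of Gkn3 and Bmx were measured as well. Of the other gastrokines, Gkn1 was measured, with a log2 ratio of -1.16 for P5 against adult (limma adjusted p = 0.0525) and -1.90 ± 0.38 for P10 against adult (-2.53 and -1.26 in the replicates, adjusted p = 0.0326). Its call at P10 was lost with processed signals and with the deposited log ratio (log2 ratio -1.87 in both), and the difference between Gkn1 and Gkn3 was not tested. Of the other TEC family kinases, which act in lymphocyte and myeloid signalling, Tec was lower at P5 than in the adult (-0.43, adjusted p = 0.0185). Btk and Txk did not pass in either comparison with the adult, nor did Tec at P10. Across all genes, 23.0% were lower and 30.1% higher at P5 than in the adult. Of the 4 other TEC kinases measured, 1 was called higher at P5 with no background correction or with the deposited log ratio, and 2 were with median centring, which the settings used here did not call.

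The genes whose ratios over the 8 arrays were most like those of Gkn3 and Mgp included contractile genes of smooth muscle. Likeness was measured as the root mean square log2 difference over the 8 ratios, among 21636 genes with a value on every array, and is a description. Among the 5 nearest to Gkn3 were ENSMUST00000090180 (0.19), a transcript not matched to a gene name here, and the smooth muscle genes Tagln (0.39), Myl9 (0.40) and Myh11 (0.47). Among the 5 nearest to Mgp were Myl9, the regulatory light chain of smooth muscle myosin (0.24), ENSMUST00000090180 (0.42) and the growth factor Vegfc (0.46). Among the 5 nearest to Bmx were the chemokine scavenger Ackr3 (0.20), Filip1l (0.23), Mall (0.24) and the matrix protein Aspn (0.24). Gkn3 and Mgp differed from one another by 0.36, and only 1 other gene was nearer to either. Bmx, with its smaller P5 deficit, differed from Mgp by 0.54 and from Gkn3 by 0.68. Gkn3, Mgp and Bmx were chosen on low P5 ratios, and arrays with P5 RNA enter this distance. Nothing is therefore read from how near these genes lie to one another.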

How the data were processed

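Per the labels' protocols, 100 ng of total RNA per channel was labelled. Each deposited file is the Feature Extraction output of 1 Agilent array with 44397 spots (version 10.5.1.1 per the file headers, 12.6 per the submitters' processing notes). They hold median spot and background signals and processed signals as linear intensity, and a log10 ratio of Cy5 over Cy3, per the file headers. The aim of the study is not stated in the sources used here.

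Ratios were taken from median signals in R 4.3.3 with limma 3.58.1: normexp background correction (offset 50), then loess (span 0.3). On 2 arrays, 11 spots with a recorded background more than 100 above their signal were left out, as were outlier and control spots. Kept were 27188 probes that, for at least 1 age, were above background by the scanner's flag in all channels of that age, and the brightest probe stood for its gene. Each slide's 4 ratios were solved by least squares for age and dye, and the results were fitted on age and replicate (2 residual and 2.91 prior degrees of freedom). A call is an adjusted p below 0.05. Channel levels were separated after quantile scaling of average signals between arrays (Aquantile).

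The members and gene lists were chosen with earlier results of these data known. Named from each list are at most the 3 largest changes per direction that passed, small lists whole, and the 5 genes most like each member (a few of these genes are not reported here); Vegfc, Sox17 and Hey1 at P10, and Myl9 and Myh11 beside the plot, were named after their values were seen. Some of the genes of the arterial list are also found in smooth muscle or fibroblasts. Gene names came from accessions through RefSeq, for 27427 of 39429 probes. Of the 21939 genes tested, 15590 had such a name, and each other accession was counted as a gene of its own. The script was tested on simulated data. Precision is limited by 2 replicates.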

Additional observations from a re-analysis of the deposited data

How the results depend on the processing

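Over 15 other settings of background correction, scaling, filter, arrays and model, the log2 ratio of Gkn3 ran from -3.67 to -2.78 for P5 against adult, from -0.30 to -0.11 for P10 against adult and from -3.56 to -2.52 for P5 against P10. Mgp ran from -3.43 to -2.41, from 0.0037 to 0.25 and from -3.68 to -2.57, and Bmx from -2.55 to -1.72, from -0.22 to -0.06 and from -2.49 to -1.50. At P10 no setting took any of the 3 past the threshold, with limma adjusted p between 0.262 and 0.920 for Gkn3, 0.451 and 0.997 for Mgp, and 0.577 and 0.972 for Bmx. The dimmer Bmx probe depended most on the processing, from -3.37 to -0.44 for P5 against adult. With each replicate left out in turn, P5 against adult was -2.98 to -2.94 for Gkn3, -2.80 to -2.64 for Mgp and -2.01 to -1.97 for Bmx, P10 against adult was -0.58 to 0.15, -0.16 to 0.44 and -0.27 to 0.13, and P5 against P10 was -3.09 to -2.41, -3.24 to -2.48 and -2.14 to -1.70. Counts of calls with a replicate left out were not made, because no residual degrees of freedom remain.

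Counts of calls moved more than the ratios. With normexp fitted on every spot, 5378 genes passed in P5 against adult (11647 before), 257 in P10 against adult (3843) and 0 in P5 against P10 (9034) by limma, where 7066 had an unadjusted p below 0.05. Under it, the arterial list had 3 genes higher and 1 lower at P10 than in the adult and 0 either way in P5 against P10, and the P5 to P10 log2 ratios of Gkn3 (-2.52), Mgp (-2.81) and Bmx (-1.50) kept their sign with no gene called. Median centring left 1279 genes in P10 against adult, 3 arterial genes lower there and 1 higher in P5 against P10. Without the 2 arrays with faulty background spots, 1885 and 5610 genes passed in P10 against adult and P5 against P10, and 1 arterial gene was higher in each P5 comparison. With arrays fitted directly, as if those of a slide were independent, 10076 genes and 10 lower arterial genes passed in P10 against adult.

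The fit reported holds the replicate as a block because ratios exist only within a slide. With no replicate block, on separate channels, 1759 genes passed in P10 against adult and 5253 in P5 against P10, and 1 arterial gene was higher in each P5 comparison.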
